A study of Danio rerio with 12 samples.

Results

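The levels of 7 microRNAs of the zebrafish were described over 4 stages of development, in cells sorted as endothelial and in cells sorted as non-endothelial: dre-miR-724, dre-miR-725-3p, dre-miR-734, dre-miR-148, dre-miR-455-3p, dre-miR-2188-5p and dre-miR-2188-3p. They were selected on measured values of these same libraries, as little-studied microRNAs with lower values in the endothelial population. Their difference between populations is therefore given as a description, and no p-value is drawn from it. They are 7 of the 326 mature microRNAs listed in the 10 libraries used. All 7 were among the 265 tested, which reached at least 10 CPM, the count scaled to library depth, in at least 3 libraries. dre-miR-2188-3p reached that level only through NoEndo libraries, so its presence among the tested microRNAs already required a difference.

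A microRNA is cut from a hairpin precursor, which can give a mature strand from its 5' arm (5p) and one from its 3' arm (3p). Usually 1 strand is kept by an Argonaute protein, and its seed near the 5' end pairs with target messages and lowers their translation or stability. A mature microRNA can come from several hairpins in the genome, and reads of such copies cannot be assigned to one of them. The hairpin can lie within another gene and be transcribed with it. The best known endothelial microRNA is miR-126, which lies within the gene egfl7.

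Small RNA came from dissociated transgenic embryos and larvae raised at 28 °C, whose GFP-positive cells were collected by fluorescence-activated sorting at 4 stages, namely 24, 48 and 72 hours post fertilization (hpf) and 6 days post fertilization (dpf). By title, the libraries form an Endo and a NoEndo population. The other labels of the NoEndo libraries read endothelial and GFP as well, which leaves the titles as the sole ground for the groups. The sources used here name neither the transgene and its promoter nor the cells that the NoEndo sort held. At 72 hpf, the Endo file and the NoEndo file of replicate 1 hold the same values throughout, and both were left out. This left 1 library of each population at 24 hpf, 72 hpf and 6 dpf and 2 at 48 hpf. Whether replicates are separate clutches is not said in the labels. The p-values therefore reflect the spread among these libraries alone. Only 48 hpf has 2 libraries per population, so much of that spread is departure of the stages from the fitted model. That model is a line on log2 hours in the trend fit and 1 difference shared by all stages in the population fit. The part of the spread between replicates may be technical.

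Reads on mature microRNAs numbered from 250084 to 1068864 in the Endo libraries and from 643870 to 5028382 in the NoEndo libraries. The population labels were set against the summed level of marker microRNAs. The 3 entries of the endothelial miR-126 family summed to between 16095 and 94225 CPM in Endo and to between 136 and 715 CPM in NoEndo. The 5 leukocyte microRNAs were also high in Endo, at 9221 to 62215 CPM against 581 to 1217 CPM. The 16 epithelial entries reached 7089 to 34601 CPM in Endo and 72972 to 296309 CPM in NoEndo. Levels below, unless said otherwise, are CPM after TMM scaling, which corrects for a shift shared by most microRNAs, and they are relative to the library. The marker sums above are before TMM scaling. After it the epithelial sums overlapped, at 7816 to 39435 CPM in Endo and 30778 to 324497 CPM in NoEndo. Fewer cells of a type and less of a microRNA per cell cannot be told apart in such bulk samples.

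The places of the 7 in the genome are those of the deposited tables, in the build Zv9, and sequences were not used here. dre-miR-724 was listed at chr8:24917166-24917187 and chr11:3157051-3157072, both on the plus strand, with 54.2% and 45.8% of its counts. dre-miR-725-3p was listed at chr22:23442195-23442216 and chr22:23643746-23643767, both on the plus strand, with 50% each. dre-miR-455-3p was listed at chr16:55426157-55426179 on the plus strand and chr5:67759763-67759785 on the minus strand, with 50.0% at each. For these microRNAs the level is the sum over both places. The others had 1 place each. It was chr1:33755619-33755641 on the plus strand for dre-miR-734 and chr9:1634039-1634060 on the minus strand for dre-miR-148. The arms of miR-2188 lay at chr5:71926735-71926755 (5p) and chr5:71926696-71926716 (3p), both on the minus strand.

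In RefSeq's gene table for the newer assembly GRCz12tu, each hairpin matched by name lay within the span of another gene, and no other microRNA gene lay within 10 kb. Strands were not compared, so it is not known from this whether a hairpin is transcribed with that gene. The hairpin of miR-148 lay in the span of hnrnpa3, which encodes an RNA-binding protein. The hairpins of miR-455 lay in col27a1a and col27a1b, which encode a fibrillar collagen of cartilage, and miR-455 is known from cartilage in mammals. The hairpin of miR-2188 lay in ank1a, the gene of an ankyrin of the red cell membrane skeleton, that of miR-734 in epha6, an ephrin receptor gene, and that of miR-724 in cpne5b, a copine gene. The hairpin of miR-725 lay in the span of the long noncoding RNA LOC137488936. Only 1 hairpin each of miR-724 and miR-725 was matched by name. The miR-455 hairpins were matched by name alone, and the one in col27a1a is on another chromosome in that assembly than the Zv9 place on chromosome 16.

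The 7 microRNAs fell into 5 with lower fitted levels in Endo and 2 without a clear difference, in the contrast that chose them. Over the stages, dre-miR-725-3p, dre-miR-2188-3p, dre-miR-148, dre-miR-2188-5p and dre-miR-455-3p were among the 73 of 265 microRNAs called lower in Endo by edgeR's quasi-likelihood test (27.5% of those tested), and nothing is read from that count. The count of members called stayed at 5 of the 7 with the identical 72 hpf file kept as Endo. It fell to 1 of the 7 with that file kept as NoEndo or under both titles. With no stage term, or without any 1 of the 72 hpf and 6 dpf libraries, it fell to 3. Over all microRNAs 38 were called higher, and with total counts alone as the scaling the split was 89 lower and 19 higher. dre-miR-724 and dre-miR-734 did not go with the label of scarcity in endothelium. Their fitted log2 differences, Endo minus NoEndo, were -0.23 (SE 0.49) and 0.30 (SE 0.55), and both were higher in Endo than in NoEndo at 24 hpf. With total counts alone, which move the median of all microRNAs in this contrast by -0.46, their differences were -0.77 and -0.24.

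**Figure D1:**
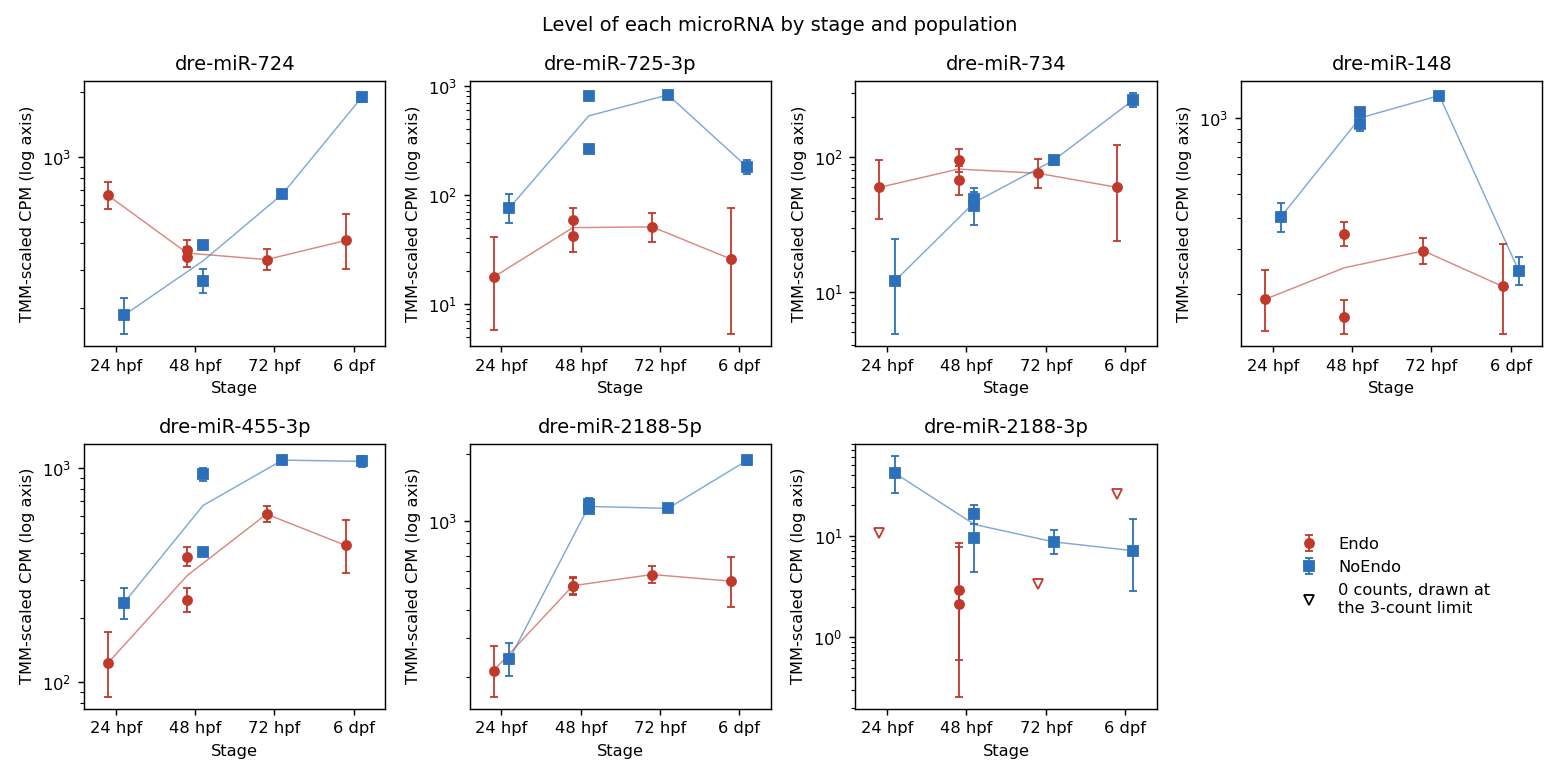
TMM-scaled CPM (log axes, which differ between panels) of the 7 microRNAs by stage, with 1 point per library, circles for Endo and squares for NoEndo, exact Poisson 95% intervals as bars and lines through the stage means; open triangles mark libraries with 0 counts at their 3-count limit. dre-miR-724 and dre-miR-734 start below Endo in NoEndo at 24 hpf (184 and 12.1) and end above it at 6 dpf (1891 and 267), while dre-miR-725-3p lies lower in every Endo library than in any NoEndo library.

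dre-miR-724 and dre-miR-734 shared a pattern over stages. In the Endo libraries, dre-miR-724 stood at 665 CPM at 24 hpf, 345 and 373 CPM at 48 hpf, 335 CPM at 72 hpf and 410.3 CPM at 6 dpf. In NoEndo it stood at 184 CPM at 24 hpf, 267 and 393 CPM at 48 hpf, 673 CPM at 72 hpf and 1891 CPM at 6 dpf. The Endo libraries thus stayed within a 1.99-fold range with the highest value at 24 hpf, while the NoEndo libraries spanned a 10.3-fold range in the order of the stages, and the populations overlapped. Endo was 3.60-fold higher at 24 hpf, both populations were close at 48 hpf (1.09-fold higher in Endo), and NoEndo was 2.01-fold higher at 72 hpf and 4.61-fold higher at 6 dpf. At 48 hpf the direction turned with total counts alone, where NoEndo was 1.63-fold higher.

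dre-miR-734, which was less abundant, stood in Endo at 59.8 CPM at 24 hpf, 95.6 and 68.1 CPM at 48 hpf, 76.2 CPM at 72 hpf and 59.8 CPM at 6 dpf. In NoEndo it stood at 12.1 CPM at 24 hpf, 43.7 and 48.9 CPM at 48 hpf, 95.2 CPM at 72 hpf and 267 CPM at 6 dpf. The Endo values lay within a 1.60-fold range, and the NoEndo values spanned a 22.1-fold range with each stage above the stage before it. At 24 hpf the level rested on 17 counts in Endo (95% Poisson interval 34.8 to 95.7 CPM) and on 7 counts in NoEndo (4.85 to 24.9 CPM). These intervals did not overlap, but they cover counting error only, and each stage but 48 hpf has 1 library per population. Endo was 4.95-fold higher at 24 hpf and 1.77-fold higher at 48 hpf, and NoEndo was 1.25-fold higher at 72 hpf and 4.46-fold higher at 6 dpf. With total counts alone the mean at 48 hpf was 89.4 CPM in both populations. The ranges were then 3.31-fold in Endo, with the lowest value at 6 dpf (28.0 CPM), and 13.9-fold in NoEndo.

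The rule compared populations and not stages, and the change with stage was tested as a slope on the log2 of hours. The test is not fully independent of the choice, since the late NoEndo values of dre-miR-724 and dre-miR-734 entered both. In NoEndo, 2 of the 7 rose and 0 fell, against a background of 22 of 265 (8.3%) that rose and 18 (6.79%) that fell. dre-miR-734 rose by 1.71 per doubling of hours (log2 scale, SE 0.30, edgeR adjusted p = 0.00473), and dre-miR-724 rose by 1.34 (SE 0.26, edgeR adjusted p = 0.00785). The median slope was 0.86 over the 7 and 0.08 over all 265. The 6 dpf library carried both calls: without it the slopes were 1.13 for dre-miR-724 (adjusted p = 0.16) and 1.88 for dre-miR-734 (adjusted p = 0.0842), and the calls over all microRNAs fell from 40 to 3. With total counts alone, which move the median slope of all microRNAs by -0.40, the slopes were 0.95 (adjusted p = 0.261) and 1.23 (adjusted p = 0.242), and the split over all microRNAs was 8 higher and 12 lower. In a fit of NoEndo alone, dre-miR-724 kept a slope of 1.34 but missed the threshold (adjusted p = 0.0628).

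In Endo, edgeR called 0 of the 7 with stage, 0 had an unadjusted p under 0.05, and the DESeq2 Wald test and limma-voom called 0 as well. Over all 265 microRNAs, 8 rose (3.02%) and 7 fell (2.64%). With total counts alone that split was 4 higher and 9 lower. The Endo slope was -0.25 for dre-miR-724 (95% interval -0.82 to 0.32) and -0.02 for dre-miR-734 (-0.75 to 0.72). With total counts alone these Endo slopes were -0.63 and -0.4, and neither passed the test. The difference of the slopes, Endo minus NoEndo, was -1.59 for dre-miR-724 (SE 0.37, unadjusted p = 0.00145, edgeR adjusted p = 0.385) and -1.72 for dre-miR-734 (SE 0.45, unadjusted p = 0.00316, edgeR adjusted p = 0.419). edgeR called 0 of 265 slope differences (0%), with 12 at an unadjusted p under 0.05. limma-voom called 0 as well, and the DESeq2 Wald test called 1, which was dre-miR-724 (-1.58, adjusted p = 0.0272). A stage trend that differs between the populations was thus not shown for dre-miR-734, and for dre-miR-724 it depended on the tool.

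**Figure D2:**
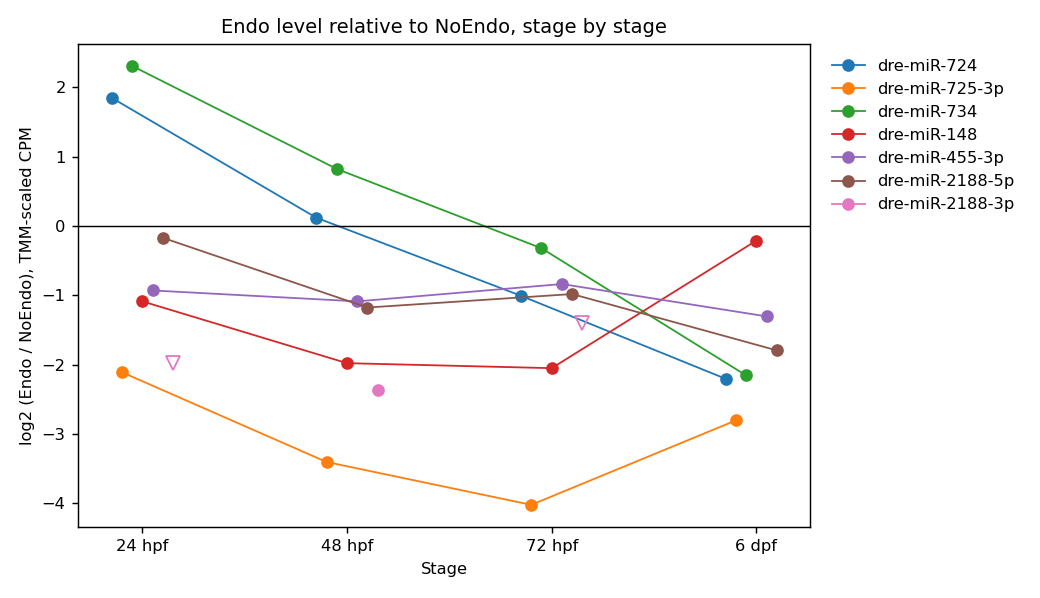
The log2 ratio of Endo to NoEndo TMM-scaled CPM (vertical axis) at each stage, with 1 line per microRNA, means of 2 libraries per population at 48 hpf and 1 library elsewhere; open triangles are limits from the 3-count level where Endo had 0 counts, and dre-miR-2188-3p at 6 dpf is left out because its limit lies above the NoEndo level. dre-miR-724 and dre-miR-734 cross from above 0 at 24 hpf (3.60-fold and 4.95-fold higher in Endo) to below 0 at 72 hpf and 6 dpf, and the other lines stay below 0.

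Higher NoEndo levels were counted stage by stage. NoEndo was higher for 5 of the 7 at 24 hpf, again for 5 of 7 at 48 hpf, and for 7 of 7 at both later stages. Over all 265 microRNAs the share was 59.2% at 24 hpf, 46.4% at 48 hpf, 55.5% at 72 hpf and 57% in the last stage, and nothing is read from the counts of the 7, which this contrast chose. With total counts alone the count at 48 hpf was 6 of 7 (71.3% of all), and the counts of the 7 at the other stages were the same. dre-miR-2188-3p at 6 dpf is counted although Endo had 0 counts there, which allows up to 25.6 CPM, above the NoEndo level of 7.12 CPM.

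dre-miR-725-3p had the widest gap among the more abundant of the 7. In Endo it stood at 17.6 CPM at 24 hpf, 41.5 and 58.5 CPM at 48 hpf, 50.8 CPM at 72 hpf and 25.6 CPM at 6 dpf. In NoEndo it stood at 75.8 CPM at 24 hpf, 798 and 261 CPM at 48 hpf, 826 CPM at 72 hpf and 179 CPM at 6 dpf. Both populations were highest at 48 or 72 hpf, and every Endo library was below every NoEndo library. By the listed values, with 0 counts taken as 0, this was so for 2 of the 7, dre-miR-725-3p and dre-miR-2188-3p, and for 20 of 265 microRNAs (7.55%), and nothing is read from it since this contrast chose the members. On total counts dre-miR-725-3p overlapped between the populations. From 24 hpf to 6 dpf, stage by stage, NoEndo was 4.31-fold, 10.6-fold, 16.2-fold and 6.98-fold higher, and the fitted log2 difference was -3.27 (SE 0.46). The Endo values at 24 hpf and 6 dpf rested on 5 and 3 counts. The NoEndo libraries of 48 hpf lay far apart (798 and 261 CPM), and neither slope passed the test (0.18 in Endo and 0.48 in NoEndo, the latter with a 95% interval of -1.50 to 2.46).

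dre-miR-148 belongs, with miR-152, to a conserved family that is known in mammals for targeting a DNA methyltransferase. In Endo it stood at 189.9 CPM at 24 hpf, 162 and 345 CPM at 48 hpf, 296 CPM at 72 hpf and 214 CPM at 6 dpf. In NoEndo it stood at 403 CPM at 24 hpf, 947 and 1052 CPM at 48 hpf, 1226.5 CPM at 72 hpf and 247 CPM at 6 dpf. On the TMM scale the 4 earlier NoEndo libraries were above every Endo library, and the 6 dpf library fell within the Endo range. On total counts the NoEndo library of 24 hpf (364 CPM) was below the Endo replicate 2 of 48 hpf (436 CPM). Nothing is read from this order, since this contrast chose the members. In the order of the stages, NoEndo was 2.12-fold, 3.94-fold, 4.14-fold and 1.16-fold higher, and the fitted log2 difference was -1.50 (SE 0.38). The slopes were 0.08 in Endo and -0.22 in NoEndo, and neither passed the test. Without the NoEndo library of 6 dpf, the NoEndo slope turned to 1.06 (adjusted p = 0.239).

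Its relative miR-152 was more abundant. Its mean was 761 CPM with an SD of 340.5 over the 5 Endo libraries and 1270.0 CPM with an SD of 674 over the 5 NoEndo libraries. Its log2 difference was -0.66 (SE 0.36) and did not pass the test (adjusted p = 0.162). At 72 hpf NoEndo was 3.69-fold higher, and at 24 hpf Endo was 1.27-fold higher. Of the reads listed for dre-miR-148 and miR-152, 88.7% and 80.2% remained after the authors' adjustment for reads with several places, although each name has 1 place in the files.

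On the TMM scale, dre-miR-455-3p was higher at the later stages in both populations, without passing the test in either. In Endo it stood at 123 CPM at 24 hpf, 387 and 244 CPM at 48 hpf, 611 CPM at 72 hpf and 436 CPM at 6 dpf. In NoEndo it stood at 234 CPM at 24 hpf, 935 and 405 CPM at 48 hpf, 1091 CPM at 72 hpf and 1077 CPM at 6 dpf. The lowest value of each population was that of 24 hpf, and the populations overlapped because the Endo library of 72 hpf was above 2 NoEndo libraries. The ratio of NoEndo to Endo lay between 1.79 (72 hpf) and 2.47 (6 dpf), with 1.90 at 24 hpf and 2.12 at 48 hpf. The slopes were 0.77 in Endo (SE 0.42, adjusted p = 0.294) and 0.86 in NoEndo (SE 0.40, adjusted p = 0.169), and their difference was -0.08 with a 95% interval of -1.40 to 1.23. With total counts alone the slopes were 0.42 in Endo and 0.45 in NoEndo (edgeR adjusted p = 0.828 and 0.754). On that scale 6 dpf was below 48 hpf in both populations. It stood at 204 against 376 and 308 CPM in Endo and at 611 against 1348 and 961 CPM in NoEndo.

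The 5' arms of the miR-455 hairpins, which are no members, had smaller fitted population differences than dre-miR-455-3p (-1.05, SE 0.33). Nothing is read from that order, since this contrast chose dre-miR-455-3p, and the arms were not tested against each other. miR-455-5p had a log2 difference of -0.40 (SE 0.35) and miR-455-2-5p one of -0.41 (SE 0.37), and neither passed the test. miR-455-5p rose with stage in NoEndo by 1.03 per doubling of hours (SE 0.27, adjusted p = 0.0264), a call that held in 13 of 23 alternatives. Together the 5' arms held 33.3% to 75% of the counts of both arms in the Endo libraries and 32.9% to 53.4% in the NoEndo libraries. The highest share of each population was that of 24 hpf.

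miR-2188 was the only hairpin with both arms among the 7. dre-miR-2188-5p had the highest mean of the 7 in both populations on adjusted counts (471 CPM in Endo and 1114 CPM in NoEndo). On unadjusted read counts before TMM scaling, which count a read at each of its places, dre-miR-455-3p was higher (350.1 against 227 CPM in Endo and 1007 against 775 CPM in NoEndo). In Endo it stood at 214 CPM at 24 hpf, at 514 CPM in both libraries of 48 hpf, at 577 CPM at 72 hpf and at 539 CPM at 6 dpf. In NoEndo it stood at 241 CPM at 24 hpf, 1193 and 1129.8 CPM at 48 hpf, 1139 CPM at 72 hpf and 1868 CPM at 6 dpf. The 24 hpf libraries were the lowest of both populations and nearly equal (1.13-fold higher in NoEndo), and from 48 hpf on every NoEndo library was above every Endo library. That order is a description as well, since this contrast chose the members. NoEndo was 2.26-fold higher at 48 hpf, 1.97-fold at 72 hpf and 3.47-fold at 6 dpf, and the fitted log2 difference was -1.07 (SE 0.31). The NoEndo slope was 0.98 (SE 0.37, adjusted p = 0.104), and the Endo slope was 0.46 (SE 0.37, adjusted p = 0.505). Of 23 alternatives, only 1, limma-voom, called the NoEndo slope (1.0, adjusted p = 0.0491). With total counts alone the slopes were 0.37 in NoEndo and 0.04 in Endo (edgeR adjusted p = 0.835 and 0.98). On that scale NoEndo stood at 1060 CPM at 6 dpf, against 1719 and 2679 CPM at 48 hpf.

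dre-miR-2188-3p was rare. It had 0, 3, 2, 0 and 0 counts in the Endo libraries of 24 hpf, 48 hpf (replicates 1 and 2), 72 hpf and 6 dpf. In the same order, the NoEndo libraries had 24, 9, 89, 54 and 7 counts, which are 41.4, 9.59, 16.3, 8.70 and 7.12 CPM. NoEndo was highest at 24 hpf. The Endo libraries with 0 counts allow up to 10.5, 3.31 and 25.6 CPM at 24 hpf, 72 hpf and 6 dpf. The limits of 24 hpf and 6 dpf exceed the lowest NoEndo level (7.12 CPM). Whether every Endo library lay below every NoEndo library thus cannot be told at this depth. Over the 5 libraries of each population, 5 counts stood against 183, a depth-scaled ratio of 11.99 in NoEndo over Endo (95% counting interval 5.05 to 37.4, before TMM scaling). That interval pools libraries of unlike stage and depth and leaves out the spread between them. Nothing is read from it, since this contrast chose dre-miR-2188-3p, which was tested only through its NoEndo levels. The NoEndo value was 3.92-fold above the 3-count level of the Endo library at 24 hpf and 2.63-fold above it at 72 hpf. These ratios leave out the counting error of NoEndo, so they are not strict lower limits. At 6 dpf no ratio is given for dre-miR-2188-3p, since the 3-count level exceeds the NoEndo value. Its fitted NoEndo slope was -0.99 (SE 0.47, adjusted p = 0.169), and a slope in Endo is not given with 3 of 5 libraries at 0.

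The arms of miR-2188 did not keep 1 ratio in NoEndo. The 3p arm held 14.6% of the counts of both arms at 24 hpf (exact 95% interval 9.61% to 21.0%). In the other 4 NoEndo libraries it held between 0.380% and 1.42%. The mean over NoEndo was 3.60% ± 6.18 (SD, n = 5), and 0.839% without the 24 hpf library. In Endo the share was 0.561% and 0.412% at 48 hpf and 0 of 522 counts at 72 hpf, which allows up to 0.575%. At 24 hpf and 6 dpf the Endo libraries had 0 of 61 and 0 of 63 counts, which allow shares of up to 4.92% and 4.76%. The 14.6% of NoEndo rests on 24 counts of 1 library, and its size against Endo at 24 hpf was not tested.

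**Figure D3:**
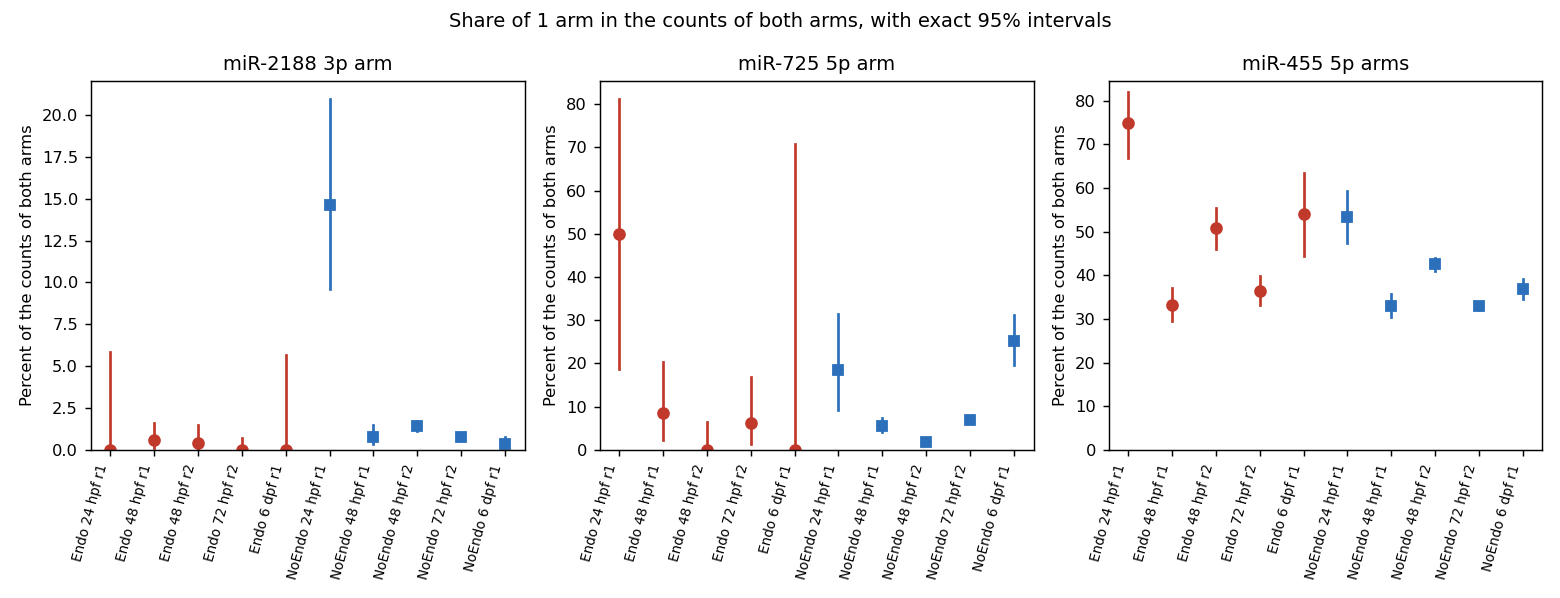
The percent of the counts of both arms that came from the 3p arm of miR-2188, the 5p arm of miR-725 and the 5p arms of miR-455 (vertical axes, scales differ) in each library, circles for Endo and squares for NoEndo, with exact 95% binomial intervals as bars. The miR-2188 share in NoEndo at 24 hpf (14.6%) stands above the other NoEndo libraries (0.380% to 1.42%), and several Endo intervals are wide because they rest on few counts.

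The 5p arm of miR-725 was the minor arm in the pooled counts of each population and, like dre-miR-725-3p, had a lower fitted level in Endo. It had 12 counts over the Endo libraries and 521 over the NoEndo libraries, and its log2 difference was -3.07 (SE 0.96). At 24 hpf it was nearly equal in both populations, at 17.6 CPM in Endo (5 counts) and 17.2 CPM in NoEndo (10 counts). At 72 hpf NoEndo was 18.6-fold higher. Its share of the counts of both arms was 7.32% over the Endo libraries (exact 95% interval 3.84% to 12.4%) and 6.48% over the NoEndo libraries (5.95% to 7.04%). Within NoEndo it ran from 1.79% to 25.1%, so the pooled share covers unequal libraries.

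Of the 4 partner arms and relatives of the 7 (miR-725-5p, miR-455-5p, miR-455-2-5p and miR-152), 1 was called lower in Endo and 0 higher. Over all 265 microRNAs, 73 (27.5%) were called lower and 38 higher. In the NoEndo trend 1 of the 4 was called higher and 0 lower, against 22 (8.3%) and 18 (6.79%) of all 265. Nothing is read from counts this small. In the Endo trend and in the slope difference edgeR, the DESeq2 Wald test and limma-voom each called 0 of the 4. At an unadjusted edgeR p under 0.05 there were 1 and 0 of the 4, against 67 and 12 of all 265. miR-152 was added by its known family, since mature sequences were not used here.

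**Figure D4:**
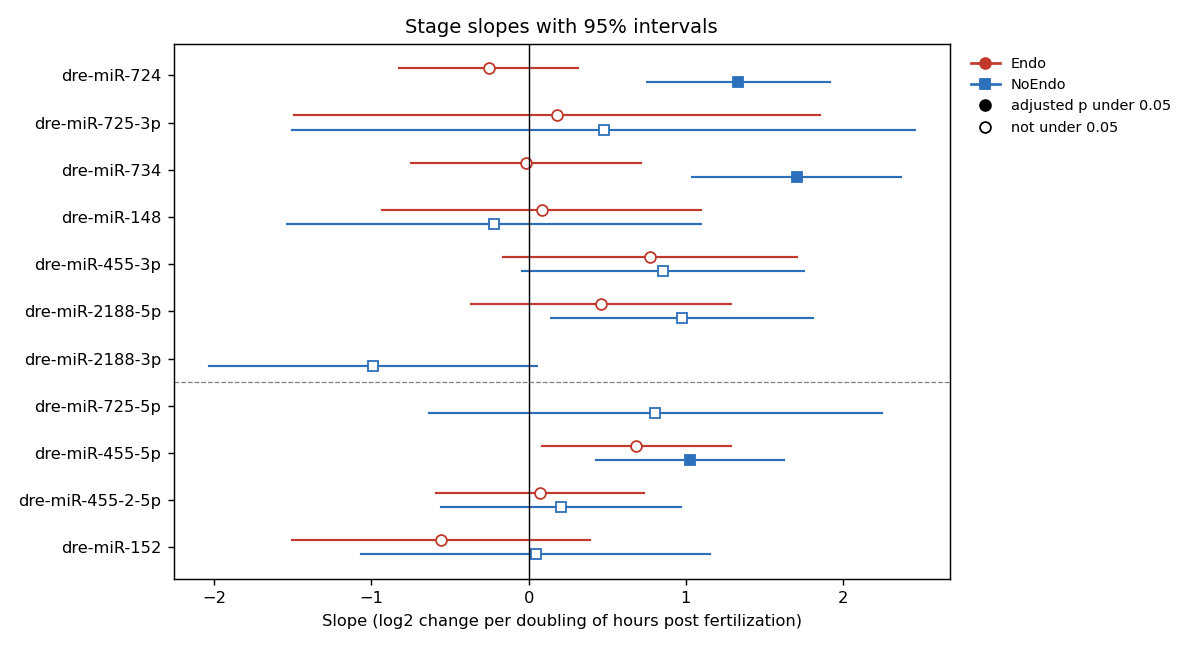
Slopes on the log2 of hours post fertilization (horizontal axis, log2 change per doubling of hours) with 95% intervals for the 7 microRNAs and, under the dashed line, 4 partner arms and relatives, circles for Endo and squares for NoEndo, filled where the adjusted p is under 0.05; Endo slopes of dre-miR-2188-3p and miR-725-5p are left out for their few counts. The NoEndo slopes of dre-miR-734 (1.71), dre-miR-724 (1.34) and miR-455-5p (1.03) are filled, and no Endo slope is.

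Markers of other cell types were followed over the NoEndo libraries beside the slopes of dre-miR-724 and dre-miR-734. The summed level of the 4 liver and gut microRNAs (miR-122, miR-192, miR-194a and miR-194b) was 252 to 10309 CPM in NoEndo and 189 to 904 CPM in Endo, before TMM scaling. On the TMM scale it stood in NoEndo at 279 CPM at 24 hpf, 968 and 474 CPM at 48 hpf, 8284 CPM at 72 hpf and 10969 CPM at 6 dpf. In Endo the sum stood at 418 CPM at 24 hpf, 195 and 184 CPM at 48 hpf, 637 CPM at 72 hpf and 1932 CPM at 6 dpf. Of the 4, edgeR called only dre-miR-122, the main microRNA of hepatocytes, in the NoEndo trend (slope 4.05, SE 0.68, adjusted p = 0.00380). All 4 had an unadjusted p under 0.05 there, and the DESeq2 Wald test called 3 and limma-voom 2. Among the 8 cartilage and mesenchyme entries, edgeR called 1, dre-miR-145-5p of smooth muscle (2.17, SE 0.26, adjusted p = 0.000461). Before TMM scaling that list summed to 10875 to 31618 CPM in NoEndo and 3846 to 9133 CPM in Endo. On the TMM scale its sums overlapped, at 7547 to 28509 CPM in NoEndo and 3963 to 15969 CPM in Endo. Of the 36 tested endothelial, leukocyte, erythroid, epithelial, neural and muscle entries, edgeR called 0 in the NoEndo trend, with 9 at an unadjusted p under 0.05, and the DESeq2 Wald test called 7 and limma-voom 2. Of the 8 cartilage and mesenchyme entries, 2 had an unadjusted p under 0.05 there, and the DESeq2 Wald test called 2 and limma-voom 1. Over all 265 microRNAs, edgeR called 40 in the NoEndo trend, with 85 at an unadjusted p under 0.05. The DESeq2 Wald test called 74 and limma-voom 46. Nothing is read from the counts of the lists. In the Endo trend edgeR called 1 of the 4 liver and gut entries, 1 of the 8 cartilage and mesenchyme entries and 1 of the 36 others. Over all 265 it called 15. The epithelial entries miR-141-5p and miR-200c-5p were at 0 in all Endo libraries, and no other marker entry was. The part of other cell types in the slopes was not tested.

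Before TMM scaling, the neural, muscle and erythroid lists ran from 1732 to 62722, from 3071 to 17605 and from 125 to 1641 CPM in NoEndo. In Endo they ran, also before TMM scaling, from 380.1 to 11314, from 1232 to 5700 and from 112 to 249 CPM. On the TMM scale they ran from 1918 to 26455, from 2506 to 19499 and from 221 to 692 CPM in NoEndo. The Endo ranges on that scale were 812 to 8947, 2633 to 6237 and 197 to 253 CPM. The neural sum in NoEndo was highest in the 48 hpf libraries and low at 24 hpf and 6 dpf, and dre-miR-725-3p and dre-miR-148 were also at their lowest NoEndo levels at 24 hpf or 6 dpf. On the TMM scale both microRNAs were highest at 72 hpf (826 and 1226.5 CPM). The neural sum there was 11882 CPM, against 21932 and 26455 CPM at 48 hpf. The erythroid sum in NoEndo was highest at 48 hpf as well (341 and 692 CPM on the TMM scale). Whether cell makeup had a part in those levels was not tested. Mature microRNA reads were 7.75% to 18.8% of a larger deposited library total in Endo and 17.5% to 40.8% in NoEndo, and the headers do not define that total.

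Likeness between microRNAs was described by Pearson's r of log2 levels over the 10 libraries, after each population's mean was subtracted. The libraries share their depth, scaling and cell makeup between microRNAs, so r is a description. dre-miR-724 and dre-miR-734 were alike (r = 0.87), and so were dre-miR-455-3p and dre-miR-2188-5p (r = 0.84) and dre-miR-734 and dre-miR-2188-5p (r = 0.81). dre-miR-725-3p went with dre-miR-148 (r = 0.72). The arms of miR-2188 went apart (r = -0.50), and dre-miR-724 and dre-miR-148 had r = -0.38.

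Against the 160 to 163 other microRNAs with a mean of at least 100 CPM, dre-miR-724 was most like miR-375 of endocrine cells (r = 0.83), miR-146a of immune cells (0.80) and miR-194a of gut and liver (0.77). dre-miR-734 was most like dre-miR-724, then miR-200c-3p of epithelia (0.84) and dre-miR-2188-5p. dre-miR-725-3p was most like miR-9-3p and miR-9-7-3p of the nervous system (both 0.84) and miR-499-5p of heart and slow muscle (0.83). dre-miR-148 was most like the muscle microRNA miR-1 (0.83), the cartilage microRNA miR-140-5p (0.81) and miR-7a (0.80). The sums of those marker lists went otherwise in NoEndo. The muscle sum was highest at 24 hpf (19499 CPM) and the cartilage and mesenchyme sum at 6 dpf (28509 CPM). dre-miR-148 had its lowest NoEndo levels at these stages (403 and 247 CPM), so no tissue is read from these single microRNAs. dre-miR-455-3p was most like miR-30b, miR-200c-3p and miR-429b (0.94 each).

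dre-miR-2188-5p was most like let-7d-5p (0.95), let-7g (0.92) and let-7c-5p (0.91), members of a family that accumulates late in development and whose near-identical reads are uncertain between members. dre-miR-2188-3p was most like miR-20b-5p (0.79), miR-301b-5p (0.77) and miR-17a-5p (0.73), with 3 of its Endo values at 0. Without the subtraction of population means these values of r were -0.25, -0.27 and 0.24. For dre-miR-734 the r with miR-200c-3p and dre-miR-2188-5p was then 0.42 and 0.60, and for the other pairs named it lay between 0.57 and 0.94. The median r over all candidates lay between -0.000716 and 0.123 for the 7.

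By rank among the microRNAs of a library, with 1 as the most abundant, the 7 lay between 51 and 289. dre-miR-2188-5p ranked 86 to 115 in Endo and 52 to 113 in NoEndo, and dre-miR-724 ranked 74 to 99 and 51 to 128. dre-miR-734 ranked 140 to 171 in Endo and 116 to 240 in NoEndo. dre-miR-2188-3p had the lowest ranks in Endo, 228 to 289, against 197 to 256 in NoEndo. Both ends of its Endo range come from libraries with 0 counts. There the rank is a tie of all microRNAs without counts and follows how many others were found. No antisense read line was listed for any of the 7 in these libraries.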

How the data were processed

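Small RNA sequencing tables of 12 libraries were used. Per the submitters' processing notes, STAR 2.3.0 and the genome build Zv9 were used. Trimming, annotation and the counting program: not given in the sources used here. Per the file headers, the authors' read counts are given for each place of a mature microRNA, and they are whole numbers. The deposited expected counts, multi-mapping-adjusted per the file headers, divide a read over its places. The deposited signal columns give reads scaled to each of 2 library totals (RPM), per the file headers, and served only to recover those totals. Groups and replicate numbers came from the titles.

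Expected counts were summed by name and rounded. Tested were the microRNAs that reached 10 CPM or more in 3 or more of the 10 libraries (265, with at least 99.9% of each library's counts). Tests were edgeR 4.0.16 robust quasi-likelihood F tests in R 4.3.3 with TMM factors of 0.468 to 2.37 and Benjamini-Hochberg adjustment at 0.05 over all 265. The population fit had stage as a factor and the trend fit an intercept and a slope on log2 hours per population, with biological coefficients of variation of 0.450 and 0.603. The SE is the log2 value over the square root of F. A count of 0 was read as at most 3 counts, worth 0.483 to 25.6 TMM-scaled CPM by library. Intervals and limits cover counting error only. Alternatives included DESeq2 1.42.0 and limma 3.58.1 (voom). The fits were tested on simulated data. The named microRNAs are the 7, their partner arms and relatives, and for each the 3 most alike with a mean of at least 100 CPM. Markers named in the text beyond these were chosen after their values were seen. The 7 and all lists were chosen with earlier results of these data known.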

Additional observations from a re-analysis of the deposited data

Results flagged for a closer look

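In 4 of 14 groups of 5 libraries (each of the 7 microRNAs in each population), 1 library stood apart from the others by the gap to its nearest neighbour. The rule's rate of about 1 in 20 groups holds for like libraries with normal values. These libraries come from 4 stages, and the 7 are not independent, so the count cannot be set against that rate. dre-miR-724 stood apart in Endo at 24 hpf, with 665 TMM-scaled CPM as the highest Endo value, and in NoEndo at 6 dpf, with 1891 CPM as the highest NoEndo value. dre-miR-2188-5p stood apart in Endo at 24 hpf with the lowest Endo value, 214 CPM. dre-miR-2188-3p stood apart in NoEndo at 24 hpf with the highest value, 41.4 CPM. These are the first or last stage, with 1 library per population, so stage and library cannot be told apart.

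The file deposited under both titles for replicate 1 at 72 hpf was left out of the main fits and used only in alternatives. It also held reads of 5 of the 7, out of 509925 reads on mature microRNAs. It had 114 counts of dre-miR-724, 16 of dre-miR-734, 28 of dre-miR-148, 144 of dre-miR-455-3p and 106 of dre-miR-2188-5p. dre-miR-725-3p and dre-miR-2188-3p had 0 counts, which allows up to 5.89 CPM. For dre-miR-148 its level, 54.9 CPM of total counts, was under the lowest of the other libraries (100.02 CPM), and for dre-miR-725-3p the limit was under the lowest (12.002 CPM).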

How the results depend on the processing

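Over all microRNAs, the calls between populations (111) became 113 with the identical file as Endo, 27 with it as NoEndo and 40 with it under both titles. They became 43 with no stage term and 65 to 120 when a library was left out. Calls in the Endo trend (15) became 27 with DESeq2 size factors, 25 with a 100 CPM filter, 57 with the DESeq2 Wald test, 29 with the identical file as Endo and 3 to 31 when a library was left out (3 without Endo 6 dpf, 5 without Endo 24 hpf, 31 without NoEndo 24 hpf). Calls in the NoEndo trend (40) became 20 with total counts alone, 74 with the DESeq2 Wald test, 26 with linear days, 16 in separate fits and 3 to 47 when a library was left out. The slope difference had 0 calls and 1 with the DESeq2 Wald test, and 0 whichever library was left out. The mean 3p share of miR-2188 in NoEndo (3.60%) ran from 0.839% to 4.40%. With unadjusted read counts, before TMM scaling, the mean Endo levels of 4 of the 7 were lower by over 1 SD (282 CPM for dre-miR-724, 33.1 for dre-miR-734, 129 for dre-miR-148, 227 for dre-miR-2188-5p). Those levels are relative to a library total that counts a read at each of its places. dre-miR-734 and dre-miR-2188-5p kept 99.86% and 99.975% of their reads in the adjustment, so the lower levels do not mean fewer reads of these microRNAs. Some of the 7 had slopes that missed the threshold and turned in sign. In Endo, leaving out a library gave -0.66 to 0.12 for dre-miR-724 (positive without 24 hpf), -0.54 to 1.0 for dre-miR-725-3p (negative without 24 or 72 hpf), -0.28 to 0.25 for dre-miR-734 (positive without 6 dpf or replicate 1 of 48 hpf) and -0.14 to 0.41 for dre-miR-148 (negative without 24 or 72 hpf). Total counts alone gave -0.26 for dre-miR-725-3p and -0.32 for dre-miR-148, the identical file as Endo or under both titles gave -0.04 and -0.01, linear days gave -0.04 for dre-miR-725-3p, and dre-miR-734 had 0.03 with the 100 CPM filter and 0.02 with limma-voom. In NoEndo, dre-miR-725-3p had -0.98 (without 24 hpf) to 2.28, -0.01 with total counts alone and -0.12 with linear days, and dre-miR-148 had -1.26 to 1.06 (without 6 dpf). The causes were not tested. dre-miR-724 was called in NoEndo in 20 of 23 alternatives and dre-miR-734 in 21. With the replicate block the calls were 46 higher and 80 lower between populations, 23 in the Endo trend, 47 in the NoEndo trend and 0 in the slope difference. The titles share only a number, and at 48 hpf the deviations of replicate 1 correlated between the populations (r = 0.659 across 265 microRNAs). Counts under 10 for dre-miR-725-3p, dre-miR-734 and dre-miR-2188-3p in some libraries limit their precision.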
